A study of Mus musculus with 26 samples.

Results

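The 10 genes described here form the core of the TGFb pathway that lies between the ligand and the nucleus, with its feedback inhibitors: the ligand gene Tgfb1, the receptor genes Tgfbr1, Tgfbr2 and Tgfbr3, the SMAD genes Smad2, Smad3 and Smad4, and the negative regulators Smad7, Skil and Bambi. They were chosen by symbol from 21761 genes, and all 10 are present in both deposited count tables and passed the filter on low counts in each of the 12 comparisons made. TGFb binds the type II receptor (TGFBR2), which phosphorylates the type I receptor (TGFBR1), and TGFBR1 in turn phosphorylates SMAD2 and SMAD3, which enter the nucleus with SMAD4. SMAD7 blocks and helps degrade the type I receptor, SKIL (SnoN) represses SMAD-driven transcription, and BAMBI is a pseudoreceptor without kinase activity. In CD4+ T cells, TGFb induces the lineage factor Foxp3 of regulatory T (Treg) cells, and TGFb signalling restrains T cell activation.

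All mice were C57BL/6. The first table held 20 libraries, with 4 of Treg cells from 3-week-old Tet2 fl/fl Tet3 fl/fl Foxp3-eGFP mice carrying CD4-Cre (Tet2/3-deficient Treg) and 4 of Treg cells from such mice without Cre (control Treg), all sorted as CD4+eGFP+. CD4-Cre acts from the CD4-expressing stage of thymic development, so the deletion was not limited to Treg cells. The same table held induced Treg (iTreg) cultures with TGFb, retinoic acid and vitamin C (TGFb+RA+VitC iTreg), with TGFb and retinoic acid (TGFb+RA iTreg), with TGFb and vitamin C (TGFb+VitC iTreg) and with TGFb alone (TGFb iTreg), cells activated without TGFb (Th0), and the naive CD4+ cells sorted as CD25-CD62LhiCD44lo eGFP- cells, with 2 libraries per group, all from 5- to 6-week-old Foxp3-eGFP reporters. The second table held 6 libraries from reporter mice of 12 to 14 weeks: 3 of Foxp3-negative cells sorted after TGFb iTreg cells had been restimulated through CD3 and CD28 (restimulated Foxp3-negative), and 3 of Foxp3-positive TGFb iTreg cells sorted on day 6 (day 6 iTreg). TET2 and TET3 oxidise 5-methylcytosine, and vitamin C is a cofactor of these enzymes.

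Library totals ran between 13397602 and 17672302 counts in the ex vivo Treg cells, 9647669 to 11640223 in the cultured and naive cells and 11293704 to 17219805 in the second table. Foxp3 followed the labels, at 516 to 590 CPM (here always counts scaled to TMM-adjusted library totals) in Tet2/3-deficient Treg and 608 to 727 CPM in control Treg, 550 to 984 CPM in the 4 kinds of iTreg culture, 16.1 to 16.8 CPM in Th0 and 28.2 to 28.4 CPM in naive cells, and at 13.2 to 17.3 CPM in restimulated Foxp3-negative cells against 314 to 349 CPM in day 6 iTreg. Over whole genes, Tet3 was at 92.2 to 111 CPM in Tet2/3-deficient Treg and 127 to 168 CPM in control Treg, and Tet2 at 11.6 to 15.8 CPM in Tet2/3-deficient Treg and 9.98 to 15.4 CPM in control Treg; the floxed exons cannot be read from these sums, so the deletion itself rests on the labels. Whether replicates came from different mice or cultures is not in the labels, so p-values reflect only the spread among these libraries, which may be technical. In bulk RNA, fewer cells of a type and less RNA per cell cannot be told apart.

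Compared per length, in the deposited FPKM, Tgfb1 was the most abundant of the 10 transcripts in every group but naive cells. Its group means in the first table were 91.3 FPKM in naive cells and 112 to 150 FPKM in the other groups. Tgfbr2 was second in all of those groups at 34.7 to 77.0 FPKM, and first in naive cells at 167 FPKM. Bambi had the lowest level of the 10 in all 8 groups of the first table, at 0.216 to 1.42 FPKM, so its counts were few (14 to 31 reads per ex vivo Treg library). Over those 8 groups the group mean CPM of Tgfbr3 spanned 17.9-fold, that of Smad7 11.1-fold and that of Skil 10.4-fold. Bambi spanned 6.58-fold, Tgfbr2 5.13-fold and Tgfbr1 4.96-fold. Smad2 spanned 1.39-fold, Smad3 1.41-fold, Tgfb1 1.53-fold and Smad4 1.92-fold, so the ligand and the SMADs that carry the signal had narrower ranges than the receptors and inhibitors.

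**Figure D1:**
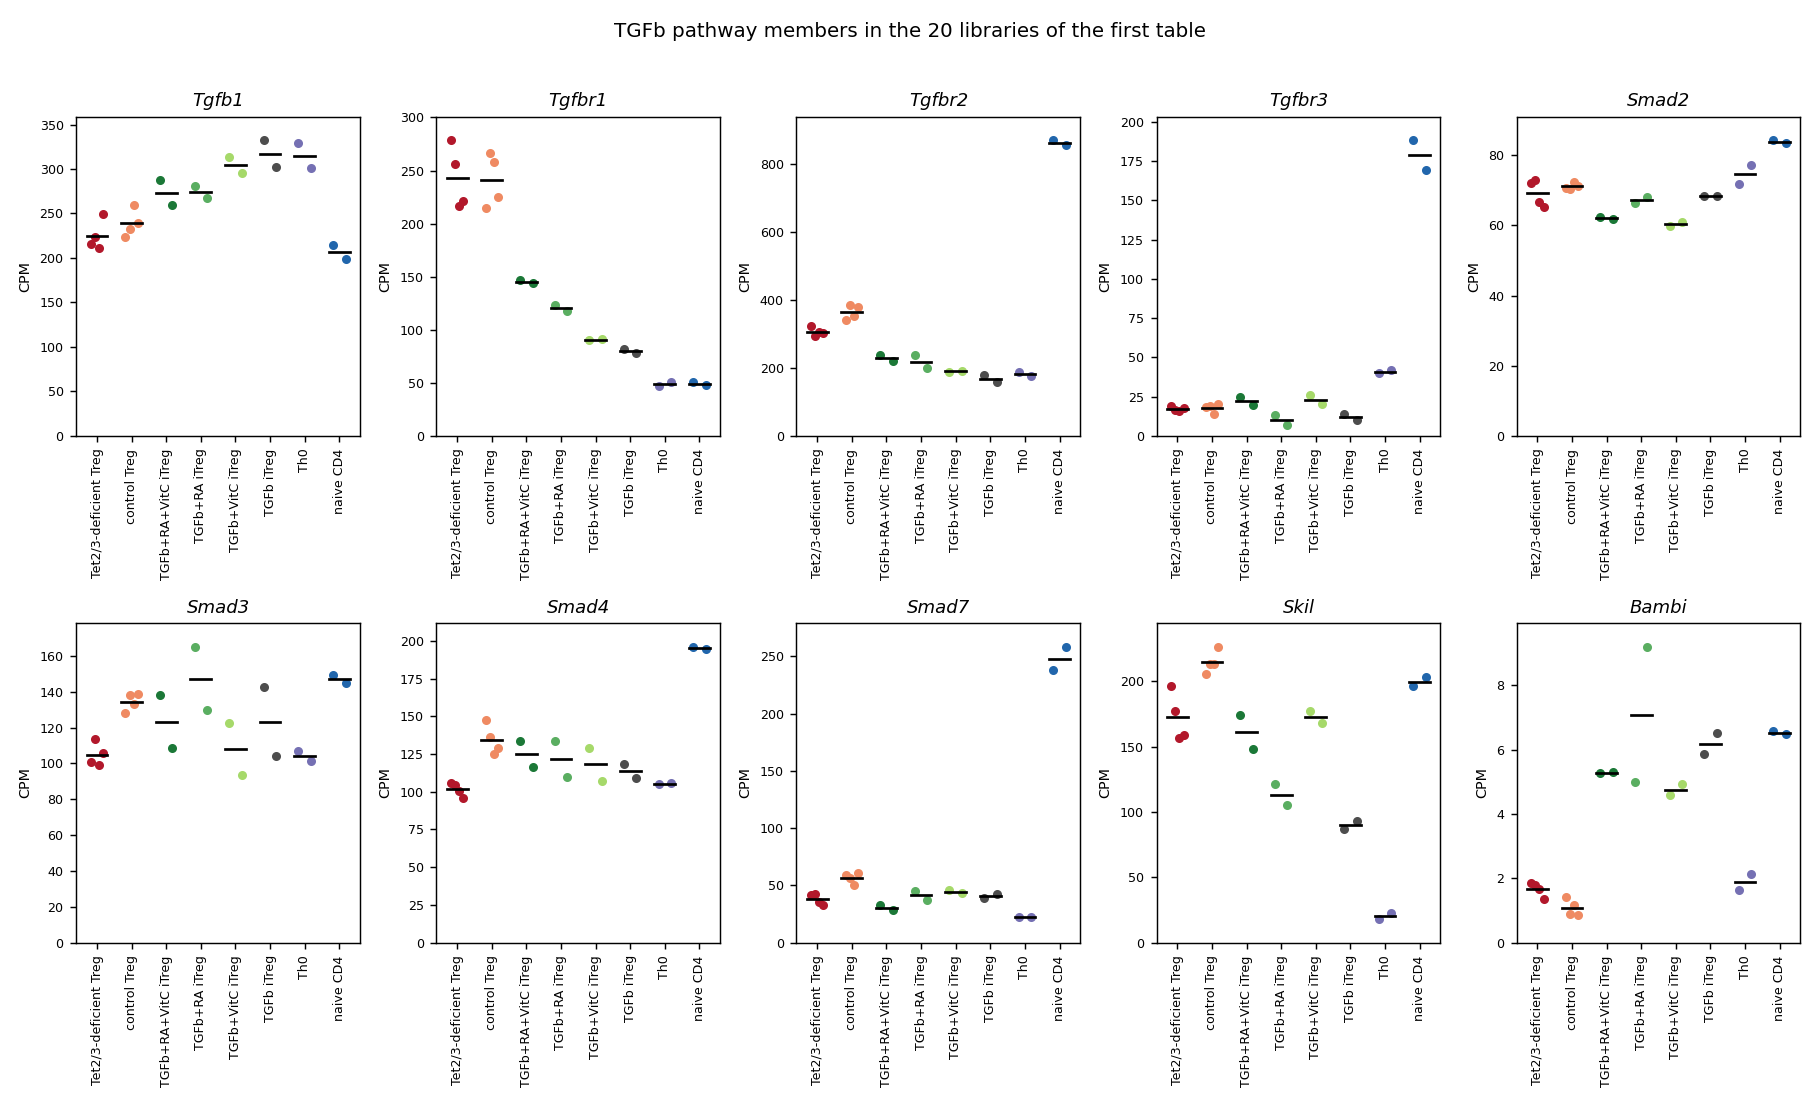
CPM (vertical axes, from 0) of the 10 genes in each of the 20 libraries of the first table; points are libraries and bars are group means. Naive cells stand highest for Tgfbr2, Tgfbr3, Smad4 and Smad7, ex vivo Treg cells stand highest for Tgfbr1, and Th0 cells stand lowest for Smad7 and Skil.

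Promoters are shown for Tgfbr1 and Tgfbr2, the signalling receptors, each called in 7 of the 12 comparisons below. Smad7 and Skil, called in 9 each, and Tgfbr3, called in 8, had no promoter entry. RefSeq (GRCm38.p6) entries were found for 4 of the 10 genes, Tgfb1, Tgfbr1 (with 2 starts), Tgfbr2 and Smad3. The reads were processed against another build, mm9, so these coordinates are not those of the counted reads. The 250 bases before each start are printed 5′ to 3′ on the gene's strand, with matches to a searched motif in capitals. They come from chr4:47352972-47353221 (+ strand) for the upstream Tgfbr1 start, chr4:47385966-47386215 (+ strand) for the downstream one and chr9:116175364-116175613 (- strand) for Tgfbr2.
Tgfbr1, upstream start: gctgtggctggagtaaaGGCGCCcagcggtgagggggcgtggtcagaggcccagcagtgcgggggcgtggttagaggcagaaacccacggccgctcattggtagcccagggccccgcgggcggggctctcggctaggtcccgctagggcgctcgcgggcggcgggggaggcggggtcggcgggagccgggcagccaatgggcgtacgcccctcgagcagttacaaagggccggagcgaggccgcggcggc
Tgfbr1, downstream start: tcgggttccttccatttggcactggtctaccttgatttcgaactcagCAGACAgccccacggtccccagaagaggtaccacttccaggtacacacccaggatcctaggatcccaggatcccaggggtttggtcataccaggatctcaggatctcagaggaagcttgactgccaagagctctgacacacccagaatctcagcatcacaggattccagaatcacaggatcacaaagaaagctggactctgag
Tgfbr2: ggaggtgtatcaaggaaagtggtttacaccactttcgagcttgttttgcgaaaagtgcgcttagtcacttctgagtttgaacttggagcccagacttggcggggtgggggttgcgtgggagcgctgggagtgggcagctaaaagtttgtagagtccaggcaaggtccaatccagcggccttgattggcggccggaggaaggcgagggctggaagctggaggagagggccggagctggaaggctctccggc

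Motifs known for SMAD binding were searched on both strands in windows of 300 bases, from 250 before to 50 after each start. The palindrome GTCTAGAC was in none of the 5 windows and is in 0.213% of 32851 mouse promoters of that length. CAGACA was in the downstream Tgfbr1 window, and 21% of all promoters hold it. GGCGCC was in the upstream Tgfbr1 window, and 11.9% of all promoters hold it. The windows of Tgfb1, Tgfbr2 and Smad3 held none of the 3 motifs. The stretch before the upstream Tgfbr1 start was 74.8% G or C, that before the downstream one 52.8% and that before Tgfbr2 58.4%. A match of letters is a description of the window and not a binding site.

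Tet2/3-deficient Treg were set against control Treg to ask what loss of both enzymes changed. The type II receptor gene Tgfbr2, the SMAD genes Smad3 and Smad4 and the inhibitor genes Smad7 and Skil fell, by 1.18-fold to 1.47-fold. Thus 5 of 10 were lower and 0 higher, where 15.8% of 11679 genes tested were lower and 16.7% higher (32.5% either way), and the median log2 fold change of the 10 was -0.16, against 0.00 over all genes tested. Tgfb1, Tgfbr1, Tgfbr3, Smad2 and Bambi did not pass the test.

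Tgfbr2 was at 325, 295, 307 and 303 CPM in Tet2/3-deficient Treg, against 341, 387, 354 and 380 CPM in control Treg. Every Tet2/3-deficient library lay below every control library, with a log2 fold change of -0.24 ± 0.06 (SE; edgeR quasi-likelihood test, Benjamini-Hochberg adjusted p = 0.00969). Its partner Tgfbr1, the type I receptor, was at 278, 256, 216 and 221 CPM in Tet2/3-deficient Treg and 214, 267, 258 and 225 CPM in control Treg, and these overlapped (0.02 ± 0.10, adjusted p = 0.879). The co-receptor Tgfbr3 (betaglycan), which presents the ligand to TGFBR2, was at 15.5 to 19.3 CPM in Tet2/3-deficient Treg and 14.0 to 20.4 CPM in control Treg, and the ligand Tgfb1 at 211 to 250 CPM in Tet2/3-deficient Treg and 224 to 260 CPM in control Treg. Those ranges overlapped as well.

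Smad3, which carries the signal to DNA, had levels of 101, 114, 98.9 and 106 CPM in Tet2/3-deficient Treg and 128, 138, 133 and 139 CPM in control Treg. Its partner Smad4, shared with the BMP branch of the family, had 106, 104, 100 and 95.7 CPM in Tet2/3-deficient Treg and 147, 137, 125 and 129 CPM in control Treg. Neither gene's libraries overlapped between genotypes, with log2 fold changes of -0.35 ± 0.06 for Smad3 (edgeR, adjusted p = 0.00141) and -0.39 ± 0.07 for Smad4 (edgeR, adjusted p = 0.00106). Smad2 was at 65.2 to 73.0 CPM in Tet2/3-deficient Treg and 70.5 to 72.4 CPM in control Treg, and its log2 fold change was -0.03 ± 0.06.

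Among the inhibitors, Smad7 reached 41.3, 42.8, 35.8 and 32.8 CPM in Tet2/3-deficient Treg, against 59.1, 56, 50 and 60.6 CPM in control Treg. It had the largest fold change of the 5 called, -0.55 ± 0.10 (edgeR, adjusted p = 0.00134). Skil was at 197, 177, 156 and 159 CPM in Tet2/3-deficient Treg and at 206, 213, 213 and 226 CPM in control Treg, a log2 fold change of -0.31 ± 0.08 (edgeR, adjusted p = 0.0104). Both inhibitors were lower in all 4 Tet2/3-deficient libraries than in any control library. Bambi had 26, 30, 31 and 21 reads in the Tet2/3-deficient libraries and 20, 14, 18 and 15 reads in the control libraries. In CPM the groups overlapped, with Tet2/3-deficient library S8 at 1.36 CPM and control library S1 at 1.41 CPM. The log2 fold change of Bambi was 0.65 ± 0.25 and missed the threshold (edgeR, adjusted p = 0.0625). It passed without control library S1 (0.80, edgeR, adjusted p = 0.0309) and with all 20 libraries in the fit (edgeR, adjusted p = 0.0399).

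Other pathway genes moved in both directions. All 7 tested genes of the list of ligands and their activation changed, 6 lower and 1 higher. They included Lrrc32 (GARP), which holds latent TGFb on the Treg surface (-0.83 ± 0.11), and Furin, the protease that cleaves the TGFb precursor (-0.67 ± 0.07). Of 16 regulators of receptors and SMADs, 2 were higher and 3 lower. The feedback inhibitor Pmepa1 was higher (0.49 ± 0.09, edgeR, adjusted p = 0.0014) and the Skil relative Ski lower (-0.37 ± 0.06, edgeR, adjusted p = 0.0014), while the ubiquitin ligase gene Smurf2 was at 70.8 CPM in Tet2/3-deficient Treg and 83.0 CPM in control Treg (edgeR, adjusted p = 0.0653). Of 9 target genes 2 were higher, Itgae, which encodes the integrin CD103 (0.93 ± 0.11), and Runx3 (0.86 ± 0.07), and 2 were lower. The activin receptor gene Acvr1b fell by 0.63 on the log2 scale. Summed markers of myeloid and dendritic cells, 7 genes, ranged from 40.2 to 132 CPM in Tet2/3-deficient Treg and from 37.9 to 49.1 CPM in control Treg, with Clec9a at 0 in the Tet2/3-deficient libraries. Summed B cell markers, 5 genes, ranged from 39.6 to 56.5 CPM in Tet2/3-deficient Treg and from 43.2 to 105 CPM in control Treg. These ranges overlapped, and those of the Treg, CD8 T cell, NK cell and general T cell lists did not. Treg markers, 4 genes, summed to 1974 to 2290 CPM in Tet2/3-deficient Treg and 2314 to 2636 CPM in control Treg. CD8 T cell markers, 2 genes, summed to 3.23 to 5.07 CPM in Tet2/3-deficient Treg and 24.8 to 28.1 CPM in control Treg. NK cell markers, 3 genes, summed to 9.49 to 13.5 CPM in Tet2/3-deficient Treg and 3.85 to 7.11 CPM in control Treg. Markers of T cells in general, 5 genes, were also lower, at 2425 to 2664 CPM in Tet2/3-deficient Treg and 2854 to 3418 CPM in control Treg. The part of these differences in the results was not tested.

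TGFb iTreg cells were set against Th0 cells to show what TGFb added to activation. The type I receptor and all 3 inhibitors rose and the co-receptor fell, while the ligand, the type II receptor and the 3 SMAD genes did not pass the test. Of the 10, 4 were higher and 1 lower, where 14.5% of 11287 genes were higher and 11.6% lower (26.1% either way). The median log2 fold change of the 10 was 0.17, against 0.00 over all genes.

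Skil was at 86.8 and 93.2 CPM in TGFb iTreg, against 18.3 and 22.9 CPM in Th0, which is 4.38-fold higher (log2 fold change 2.13 ± 0.13, edgeR, adjusted p = 2.41e-08). Smad7 was at 38.6 and 42.6 CPM in TGFb iTreg, against 22 and 22.6 CPM in Th0 (0.86 ± 0.12, edgeR, adjusted p = 0.00013). Bambi was at 5.85 and 6.52 CPM in TGFb iTreg, against 1.62 and 2.14 CPM in Th0 (1.71 ± 0.31, edgeR, adjusted p = 0.000977). All 3 inhibitors were higher in both TGFb libraries than in either Th0 library.

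Tgfbr1 was at 81.8 and 77.9 CPM in TGFb iTreg, against 47.2 and 50.8 CPM in Th0 (0.70 ± 0.09, edgeR, adjusted p = 3.68e-05). Tgfbr3 was at 13.7 and 10.3 CPM in TGFb iTreg, against 39.7 and 42 CPM in Th0, 3.40-fold lower (-1.77 ± 0.21, edgeR, adjusted p = 7.7e-05). Tgfbr2 was at 179 and 157 CPM in TGFb iTreg and 190 and 176 CPM in Th0, overlapping between groups (-0.12 ± 0.10). Thus the type I receptor rose, the co-receptor fell and the type II receptor did not pass. Log2 fold changes of the SMAD genes were -0.13 ± 0.08 for Smad2, 0.24 ± 0.17 for Smad3 and 0.11 ± 0.11 for Smad4. These 5 calls were kept under each alternative run, leave-one-out fits included.

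Of the lists, 6 of 9 target genes rose and none fell, led by Id1, an inhibitor of helix-loop-helix factors and a BMP target (3.07 ± 0.24, edgeR, adjusted p = 3.45e-07). The receptor gene Bmpr1a (1.43 ± 0.16) was among 4 of 7 other receptors that rose. Lrrc32 (1.29 ± 0.17), Furin (1.26 ± 0.12) and Pmepa1 (1.25 ± 0.18) rose, and so did Smurf2 (0.38 ± 0.09). Ski was at 180 CPM in TGFb iTreg and 154 CPM in Th0 (edgeR, adjusted p = 0.184). Among markers of other cell types, those of B cells summed to 3.07 to 3.53 CPM in TGFb iTreg and 1.02 to 1.42 CPM in Th0, with Ms4a1 and Pax5 at 0 in both. The stromal and endothelial list, 5 genes, was at 136 to 138 CPM in TGFb iTreg and 104 to 105 CPM in Th0, with Cdh5, Col1a2 and Pdgfrb at 0 in Th0. Its part was not tested.

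Th0 cells were set against naive cells to show activation without added TGFb. The type II and type III receptors, Smad3 and Smad4 and all 3 inhibitors fell, and the ligand rose. That made 7 of 10 lower and 1 higher, where 36.4% of 11287 genes were lower and 35.7% higher (72.0% either way). The median log2 fold change of the 10 was -1.30, against -0.01 over all genes.

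Smad7 was at 22 and 22.6 CPM in Th0, against 238 and 258 CPM in naive cells, 10.9-fold lower (-3.44 ± 0.12, edgeR, adjusted p = 1.58e-12). Skil was at 18.3 and 22.9 CPM in Th0, against 196 and 203 CPM in naive cells, 9.46-fold lower (-3.24 ± 0.13, edgeR, adjusted p = 5.92e-12). Bambi was at 1.62 and 2.14 CPM in Th0, against 6.56 and 6.49 CPM in naive cells (-1.75 ± 0.31, edgeR, adjusted p = 0.000119). The inhibitor genes were therefore far lower in both Th0 libraries.

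Tgfbr2 was at 190 and 176 CPM in Th0, against 871 and 857 CPM in naive cells, 4.61-fold lower (-2.21 ± 0.10, edgeR, adjusted p = 2.59e-11). Tgfbr3 was at 39.7 and 42 CPM in Th0, against 188 and 169 CPM in naive cells (-2.09 ± 0.18, edgeR, adjusted p = 2.58e-07). Tgfbr1 was at 47.2 and 50.8 CPM in Th0 and 50.3 and 48.3 CPM in naive cells, and the groups overlapped (0.03 ± 0.09). Ligand transcripts went the other way from Tgfbr2 and Tgfbr3, with Tgfb1 at 329 and 301 CPM in Th0, against 215 and 199 CPM in naive cells (0.64 ± 0.09, edgeR, adjusted p = 9.23e-06).

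Smad4 was at 105 and 106 CPM in Th0, against 196 and 195 CPM in naive cells (-0.85 ± 0.11, edgeR, adjusted p = 5.34e-06). Smad3 was at 107 and 102 CPM in Th0, against 150 and 145 CPM in naive cells (-0.46 ± 0.17, edgeR, adjusted p = 0.0265). Although its groups did not overlap, the Smad3 call was lost without a count filter (adjusted p = 0.0757) and without any of naive library 1 (0.103), naive library 2 (0.075), Th0 library 1 (0.0633) or Th0 library 2 (0.114). Smad2 was at 71.9 and 77.3 CPM in Th0 and 84.2 and 83.5 CPM in naive cells (edgeR, adjusted p = 0.163).

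Of 16 regulators, 10 fell and 4 rose. The inhibitor genes Smurf2 (-2.05 ± 0.09), Ski (-1.67 ± 0.12) and Pmepa1 (-1.14 ± 0.19) were among those that fell, and so was the AP-1 gene Junb among the targets (-4.20 ± 0.22). In Th0, Lrrc32 was at 177 CPM with 3 reads over both naive libraries, a ratio of 1063 (exact 95% interval 363 to 5155, counting error only). The cell cycle inhibitor gene Cdkn1a was at 30.3 CPM in Th0 with 2 reads over both naive libraries, a ratio of 274 (exact 95% interval 75.4 to 2265). Summed markers were lower in Th0 for NK cells, at 0.710 to 0.817 CPM against 15.5 to 18.04 CPM in naive cells, with Klrb1c and Ncr1 at 0 in Th0. They were at 15.3 to 16.5 CPM in Th0 and 33.9 to 36.4 CPM in naive cells for CD8 T cells, and at 104 to 105 CPM in Th0 and 253 to 277 CPM in naive cells for stromal and endothelial cells. Of the stromal and endothelial list, Pdgfrb was at 0 in both groups, and Cdh5 and Col1a2 were at 0 in Th0. Markers of T cells in general were at 2094 to 2237 CPM in Th0 and 3578 to 3678 CPM in naive cells. Their part in these results was not tested.

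**Figure D2:**
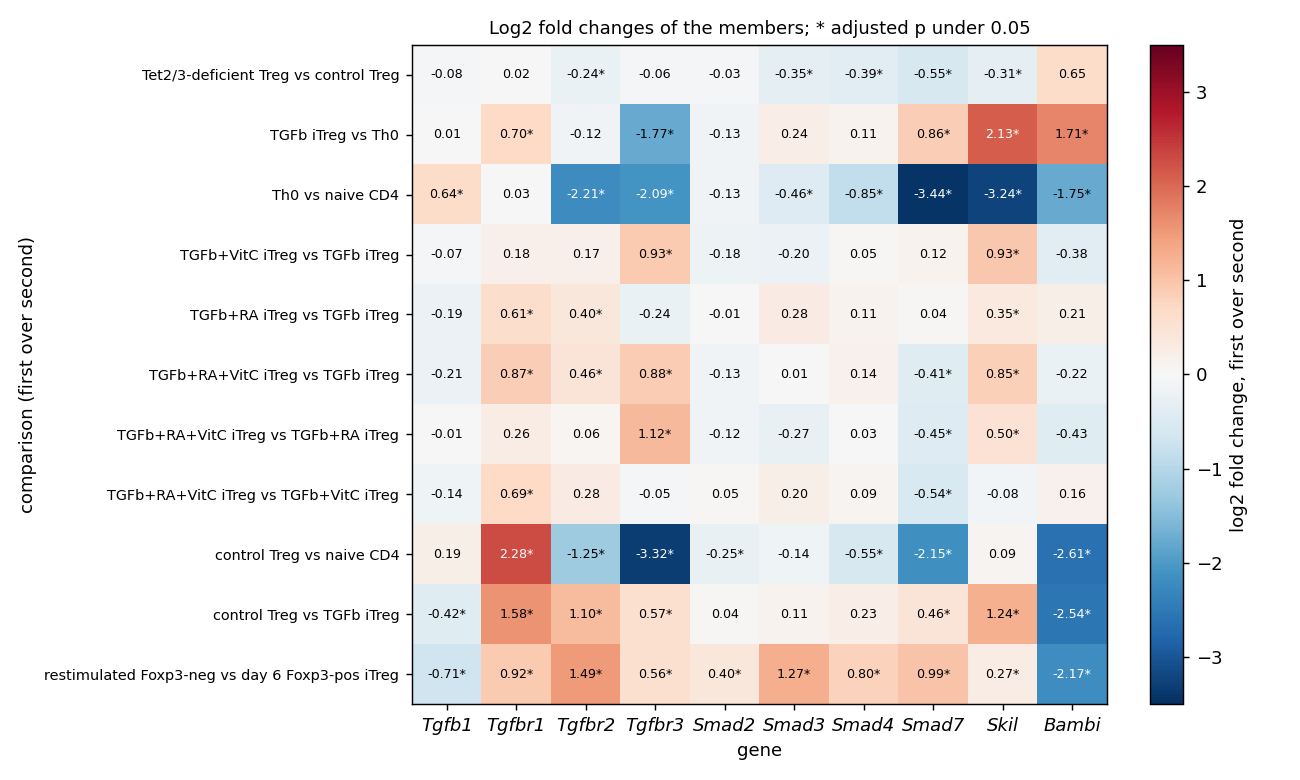
Log2 fold changes of the 10 genes (columns) in 11 comparisons (rows, first group over second) from edgeR, coloured by value; an asterisk marks an adjusted p under 0.05. Smad7 fell in Tet2/3-deficient Treg, Th0 and all 3 comparisons of TGFb+RA+VitC iTreg, and rose in TGFb iTreg against Th0 and in restimulated cells.

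Retinoic acid and vitamin C were each added to TGFb, alone and together. The cultures with TGFb+VitC, TGFb+RA and TGFb+RA+VitC share the TGFb iTreg libraries as their control, so the 3 sets of fold changes are not independent and are given side by side. Skil was called higher with each addition, Tgfbr3 in both cultures with vitamin C, Tgfbr1 and Tgfbr2 in both cultures with retinoic acid, and Smad7 lower with the combination. With vitamin C, 2 of 10 were called, both higher, where 16.8% of 11287 genes were called (8.84% higher and 7.99% lower). With retinoic acid 3 of 10 were called, all higher, where 16.5% were called (7.19% higher and 9.29% lower). With both, 4 were higher and 1 lower, where 37.5% were called (18.3% higher and 19.2% lower). Medians of the 10 were 0.08, 0.16 and 0.07 on the log2 scale in those comparisons, against 0.00, 0.02 and 0.01 over all genes.

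Skil was at 174 and 148 CPM with TGFb+RA+VitC, 121 and 105 CPM with TGFb+RA and 177 and 168 CPM with TGFb+VitC, against 86.8 and 93.2 CPM with TGFb alone. Each supplemented library was above both TGFb libraries, and the cultures with vitamin C stood above that with retinoic acid alone. Log2 fold changes over TGFb iTreg were 0.85 ± 0.11 with both (edgeR, adjusted p = 2.95e-05), 0.35 ± 0.11 with retinoic acid (edgeR, adjusted p = 0.0418) and 0.93 ± 0.11 with vitamin C (edgeR, adjusted p = 6.47e-05). The call with retinoic acid was the least stable. It was lost with DESeq2 (adjusted p = 0.0568), RLE factors (0.0598), limma on log2(FPKM + 1) (0.0631) and all 20 libraries in the fit (0.0758), and without TGFb library 1 (0.264), TGFb library 2 (0.0893) or TGFb+RA library 1 (0.271).

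Tgfbr3 was at 24.7 and 19.5 CPM with TGFb+RA+VitC, 13 and 7.01 CPM with TGFb+RA and 25.9 and 20.1 CPM with TGFb+VitC, against 13.7 and 10.3 CPM with TGFb alone. The 4 libraries with vitamin C were all above the 4 without. Log2 fold changes over TGFb iTreg were 0.88 ± 0.22 with both (edgeR, adjusted p = 0.00784), -0.24 ± 0.25 with retinoic acid (edgeR, adjusted p = 0.563) and 0.93 ± 0.22 with vitamin C (edgeR, adjusted p = 0.0148). Without TGFb library 2 the adjusted p was 0.0762 with both and 0.121 with vitamin C. It was 0.0679 without TGFb+RA+VitC library 1 and 0.104 without TGFb+VitC library 1.

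Tgfbr1 was at 147 and 144 CPM with TGFb+RA+VitC, 124 and 118 CPM with TGFb+RA and 90.2 and 91.4 CPM with TGFb+VitC, against 81.8 and 77.9 CPM with TGFb alone. No neighbouring pair in that order overlapped, with 2 libraries per group. The step from TGFb+RA to TGFb+RA+VitC did not pass the test (0.26 ± 0.08, edgeR, adjusted p = 0.0681). Log2 fold changes over TGFb iTreg were 0.87 ± 0.08 with both (edgeR, adjusted p = 1.6e-06), 0.61 ± 0.08 with retinoic acid (edgeR, adjusted p = 0.000122) and 0.18 ± 0.08 with vitamin C (edgeR, adjusted p = 0.151). Tgfbr2 was at 239 and 221 CPM with TGFb+RA+VitC, 238 and 200 CPM with TGFb+RA and 189 and 192 CPM with TGFb+VitC, against 179 and 157 CPM with TGFb alone. Its log2 fold changes were 0.46 ± 0.09 with both (edgeR, adjusted p = 0.00159), 0.40 ± 0.09 with retinoic acid (edgeR, adjusted p = 0.0102) and 0.17 ± 0.10 with vitamin C (edgeR, adjusted p = 0.224). The call with retinoic acid was lost without TGFb library 2 (adjusted p = 0.125) or TGFb+RA library 1 (0.117).

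Smad7 was at 32.7 and 28.1 CPM with TGFb+RA+VitC, 45.3 and 37.1 CPM with TGFb+RA and 45.7 and 43.1 CPM with TGFb+VitC, against 38.6 and 42.6 CPM with TGFb alone. The 2 libraries with both additions were the lowest of the 8. The log2 fold change over TGFb iTreg was -0.41 ± 0.12 with both (edgeR, adjusted p = 0.0114), 0.04 ± 0.11 with retinoic acid (edgeR, adjusted p = 0.851) and 0.12 ± 0.11 with vitamin C (edgeR, adjusted p = 0.491). The call was lost without TGFb library 2 (adjusted p = 0.0895) or TGFb+RA+VitC library 2 (0.106).

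The remaining genes did not pass in these 3 comparisons. Tgfb1 was at 288 and 259 CPM with TGFb+RA+VitC, 281 and 267 CPM with TGFb+RA and 314 and 295 CPM with TGFb+VitC, against 332 and 303 CPM with TGFb alone (edgeR, adjusted p = 0.0702 with both, 0.145 with retinoic acid and 0.641 with vitamin C). Smad3 overlapped between these cultures, at 138 and 109 CPM with TGFb+RA+VitC, 165 and 130 CPM with TGFb+RA and 122 and 93.7 CPM with TGFb+VitC, against 142 and 104 CPM with TGFb alone. A fit with a replicate block called Smad3 with TGFb+RA (edgeR, adjusted p = 0.0374). It also called Tgfb1 with TGFb+RA (0.0446) and with TGFb+RA+VitC (0.0166). Over all genes the block raised the calls from 1860 to 2584 with TGFb+RA and from 4232 to 4979 with TGFb+RA+VitC. Smad2 stayed between 59.9 and 68.4 CPM and Smad4 between 107 and 134 CPM over the 8 libraries. Bambi ranged from 4.59 to 9.18 CPM over them.

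The combination was also set against each single addition, comparisons that share the TGFb+RA+VitC libraries. Over TGFb+RA, 2 of 10 were higher and 1 lower, where 4.31% of genes were higher and 3.22% lower (7.54% either way). Tgfbr3 (1.12 ± 0.23, edgeR, adjusted p = 0.00949) and Skil (0.50 ± 0.11, edgeR, adjusted p = 0.00995) rose, and Smad7 fell by 0.45 on the log2 scale (SE 0.12, edgeR, adjusted p = 0.0254). Tgfbr3 missed the threshold without TGFb+RA library 2 (adjusted p = 0.0531) or TGFb+RA+VitC library 1 (0.0745), and Skil without the same libraries (0.0785 and 0.103). Smad7 missed it without TGFb+RA library 1 (0.163) or TGFb+RA+VitC library 2 (0.222), with limma (0.0521) and with all 20 libraries (0.0632), and Bambi passed it without TGFb+RA library 1 (-0.81, edgeR, adjusted p = 0.0445).

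Over TGFb+VitC, 1 of 10 was higher and 1 lower, where 5.81% of genes were higher and 9.30% lower (15.1% either way). Tgfbr1 rose (0.69 ± 0.08, edgeR, adjusted p = 2.68e-05) and Smad7 fell by 0.54 on the log2 scale (SE 0.12, edgeR, adjusted p = 0.00482), a call lost without TGFb+RA+VitC library 2 (adjusted p = 0.0687). Tgfbr2 was at 239 and 221 CPM with TGFb+RA+VitC, against 189 and 192 CPM with TGFb+VitC (0.28 ± 0.09, edgeR, adjusted p = 0.0558; without a count filter 0.034).

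Whether the effect of vitamin C differed with and without retinoic acid was tested as an interaction. None of the 10 passed, where 0.0177% of 11287 genes (2 genes) did. DESeq2 called none of the 10 either. An unadjusted p under 0.05 was found for 2 of the 10 and for 564 of the 11287 genes. The 2 were Smad7 (-0.58 ± 0.16, edgeR, adjusted p = 0.494) and Skil (-0.43 ± 0.15, edgeR, adjusted p = 0.757). The data thus do not show for any of the 10 that the response to vitamin C depended on retinoic acid.

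**Figure D3:**
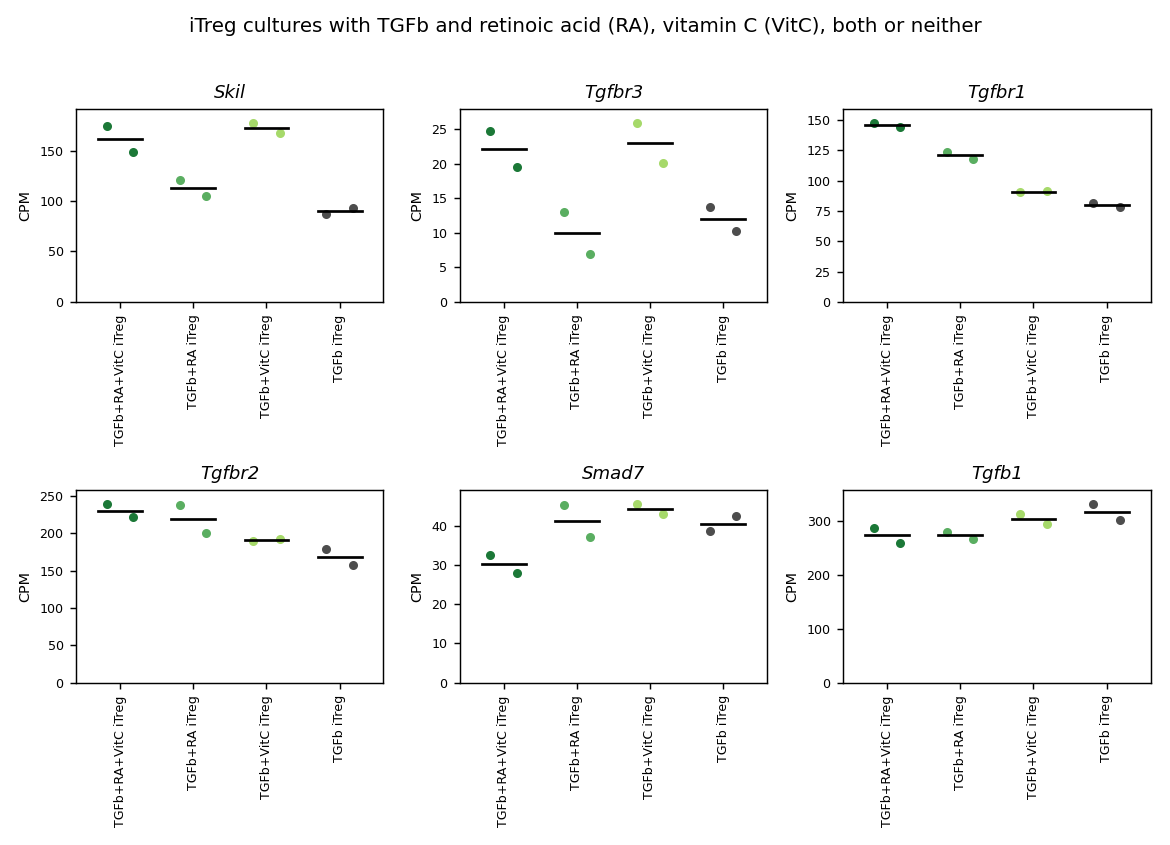
CPM (vertical axes, from 0) of 6 genes in the iTreg cultures with TGFb and both additions, retinoic acid (RA), vitamin C (VitC) or neither; points are the 2 libraries of each group and bars are means. Skil and Tgfbr3 are higher in the cultures with vitamin C, Tgfbr1 in those with retinoic acid, and Smad7 is lowest with both.

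Among other pathway genes, several receptor and target transcripts fell with retinoic acid. Of 7 other receptors of the family 4 fell with TGFb+RA and 4 fell and 1 rose with TGFb+RA+VitC, against none with TGFb+VitC. Acvrl1, which encodes the type I receptor ALK1, was at 7.24 CPM with TGFb+RA+VitC, 18.5 CPM with TGFb+RA and 62.3 CPM with TGFb+VitC, against 88.5 CPM with TGFb alone. Its log2 fold changes were -3.60 ± 0.24 with both and -2.24 ± 0.21 with retinoic acid. Bmpr1a fell by 1.69 with both and by 1.25 with retinoic acid on that scale.

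Of 9 target genes, 6 fell and 2 rose with both additions, 4 fell and 2 rose with retinoic acid, and 1 fell with vitamin C. Id1 was at 4.04 CPM with both and 6.35 CPM with retinoic acid, against 21.0 CPM with TGFb alone. Cdkn1a was at 9.06 CPM with both, 14.1 CPM with retinoic acid and 34.3 CPM with vitamin C, against 49.1 CPM with TGFb alone, and passed the test in all 3. Itgae rose with both, at 13.4 CPM against 1.75 CPM (2.93 ± 0.32). The feedback inhibitor Pmepa1 passed in all 3, at 55.3 CPM with both, 36.7 CPM with retinoic acid and 40.4 CPM with vitamin C, against 25.2 CPM with TGFb alone. Furin rose with vitamin C (0.83 ± 0.11). Ski and Smurf2 did not pass in any of the 3.

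Summed markers of other cell types also differed between these cultures, untested. CD8 T cell markers summed to 38.9 to 41.2 CPM with TGFb+RA+VitC, 10.9 to 11.6 CPM with TGFb+RA and 23.6 to 27.8 CPM with TGFb+VitC, against 13.5 to 15.4 CPM with TGFb alone. B cell markers summed to 11.6 to 14.3 CPM with TGFb+RA+VitC, 5.73 to 6.03 CPM with TGFb+RA and 4.46 to 6.88 CPM with TGFb+VitC, against 3.07 to 3.53 CPM with TGFb alone, and Ms4a1 and Pax5 were at 0 in all 4. Myeloid and dendritic markers summed to 19.8 to 22.6 CPM with TGFb+RA+VitC, 2.86 to 3.86 CPM with TGFb+RA and 15.1 to 20.2 CPM with TGFb+VitC, against 8.15 to 11.2 CPM with TGFb alone, and Csf1r and Clec9a were at 0 in all 4. The stromal and endothelial list summed to 76.8 to 89.0 CPM with TGFb+RA+VitC, 120 to 122 CPM with TGFb+RA and 123 to 126 CPM with TGFb+VitC, against 136 to 138 CPM with TGFb alone. Their part in the results was not tested.

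Ex vivo control Treg cells were also set against naive cells and against TGFb iTreg. The control Treg cells came from 3-week-old floxed mice and the others from 5- to 6-week-old reporter mice, so cell type, age and genotype cannot be told apart. TGFb iTreg cells had also been activated and cultured, so in that comparison activation and culture cannot be told apart from these either. Both comparisons share the control Treg libraries. Over naive cells, 1 of 10 was higher and 6 lower, where 28.6% of 11738 genes were higher and 26.3% lower (54.9% either way). Over TGFb iTreg, 5 of 10 were higher and 2 lower, where 32.3% of 11831 genes were higher and 29.1% lower (61.4% either way). The median of the 10 was -0.40 over naive cells and 0.34 over TGFb iTreg on the log2 scale, against 0.01 and 0.04 over all genes.

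Tgfbr1 was at 214, 267, 258 and 225 CPM in control Treg, against 81.8 and 77.9 CPM in TGFb iTreg and 50.3 and 48.3 CPM in naive cells. It was higher than in either, with log2 fold changes of 1.58 ± 0.11 over TGFb iTreg (edgeR, adjusted p = 1.18e-06) and 2.28 ± 0.12 over naive cells (edgeR, adjusted p = 9.06e-08). Tgfbr2 was at 341, 387, 354 and 380 CPM in control Treg, against 179 and 157 CPM in TGFb iTreg and 871 and 857 CPM in naive cells. It lay between them, 1.10 ± 0.09 above TGFb iTreg (edgeR, adjusted p = 4.25e-06) and -1.25 ± 0.08 relative to naive cells (edgeR, adjusted p = 3.34e-07).

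The ratio of Tgfbr2 to Tgfbr1 FPKM, taken within each library, sets the pair side by side. It was 1.58 ± 0.17 in Tet2/3-deficient Treg (SD, n = 4), 1.89 ± 0.18 in control Treg (SD, n = 4), 1.96 with TGFb+RA+VitC, 2.24 with TGFb+RA, 2.60 with TGFb+VitC, 2.61 with TGFb alone, 4.64 in Th0 and 21.7 in naive cells (means of 2 libraries). The naive libraries, at 21.5 and 22.0, were far above the other 18 libraries of the first table. The Tet2/3-deficient libraries, at 1.43 to 1.76, and the control Treg libraries, at 1.70 to 2.09, overlapped. In the second table it was 5.66 ± 0.61 in restimulated Foxp3-negative cells and 3.81 ± 0.20 in day 6 iTreg (SD, n = 3 each), without overlap. This ratio was computed as a description and was not tested.

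**Figure D4:**
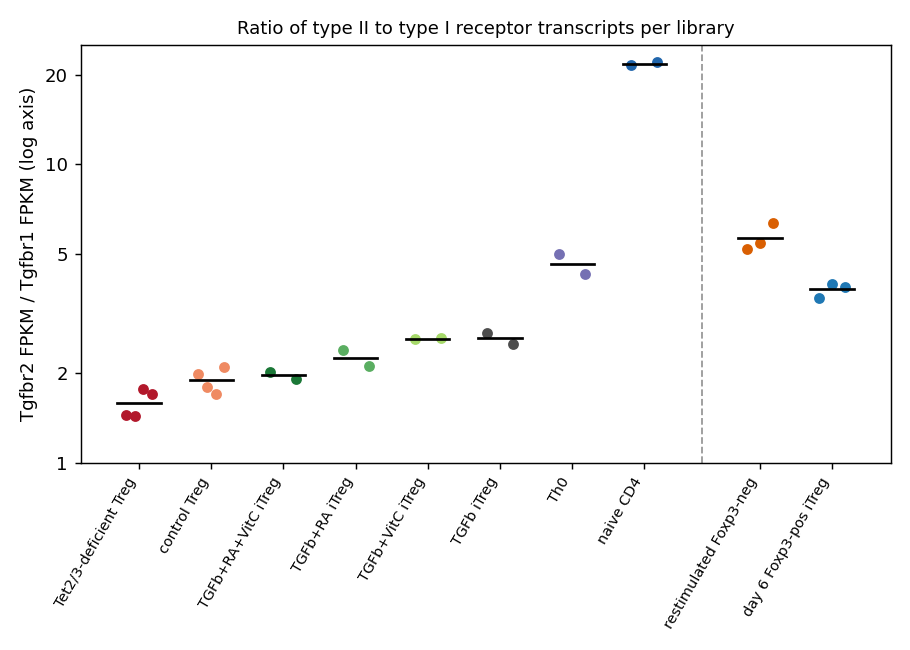
Ratio of Tgfbr2 to Tgfbr1 FPKM (log axis) in each of 26 libraries, by group; points are libraries, bars are means, and the dashed line separates the 2 tables. Naive cells stand near 22 and ex vivo Treg cells between 1.43 and 2.09.

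Tgfbr3 was at 18.6, 19.2, 14 and 20.4 CPM in control Treg, against 13.7 and 10.3 CPM in TGFb iTreg and 188 and 169 CPM in naive cells. It was 9.98-fold lower than in naive cells (-3.32 ± 0.13, edgeR, adjusted p = 1.85e-08), and 0.57 ± 0.19 higher than in TGFb iTreg (edgeR, adjusted p = 0.0223), a call lost without control library S2 (0.0517), control library S4 (0.0515) or TGFb library 2 (0.22). Tgfb1 was at 224, 232, 260 and 240 CPM in control Treg, below the 332 and 303 CPM of TGFb iTreg (-0.42 ± 0.08, edgeR, adjusted p = 0.00153). Over naive cells, at 215 and 199 CPM, its change of 0.19 ± 0.09 did not pass (edgeR, adjusted p = 0.0823) and did so without control library S1 (0.0333), with limma (0.00688) and with all 20 libraries (0.0365).

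Smad7 was at 59.1, 56, 50 and 60.6 CPM in control Treg, against 38.6 and 42.6 CPM in TGFb iTreg and 238 and 258 CPM in naive cells. That is 4.44-fold lower than in naive cells (-2.15 ± 0.10, edgeR, adjusted p = 2.87e-08) and 1.38-fold higher than in TGFb iTreg (0.46 ± 0.11, edgeR, adjusted p = 0.00481; without TGFb library 1, 0.0593). Skil was at 206, 213, 213 and 226 CPM in control Treg, against 86.8 and 93.2 CPM in TGFb iTreg and 196 and 203 CPM in naive cells. It was higher than in TGFb iTreg (1.24 ± 0.09, edgeR, adjusted p = 1.17e-06), and its change over naive cells did not pass (0.09 ± 0.08, edgeR, adjusted p = 0.358; limma 0.045). The inhibitors thus parted, Skil standing near its naive level in Treg cells and Smad7 well under it.

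Bambi was at 1.41, 0.883, 1.17 and 0.841 CPM in control Treg, against 5.85 and 6.52 CPM in TGFb iTreg and 6.56 and 6.49 CPM in naive cells. It was lower than in both, by 5.81-fold against TGFb iTreg (edgeR, adjusted p = 2.52e-05) and 6.12-fold against naive cells (edgeR, adjusted p = 2.63e-05). Smad4 was at 147, 137, 125 and 129 CPM in control Treg, against 196 and 195 CPM in naive cells (-0.55 ± 0.09, edgeR, adjusted p = 0.000349). Over TGFb iTreg, at 119 and 109 CPM, its change was 0.23 ± 0.09 (edgeR, adjusted p = 0.0539), and it passed without control library S3 (0.0343), with limma (0.0295) and with all 20 libraries (0.0311).

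Smad2 was at 70.5 to 72.4 CPM in control Treg, against 84.2 and 83.5 CPM in naive cells (-0.25 ± 0.08, edgeR, adjusted p = 0.0234). That call was lost without control library S2 (0.0561), naive library 1 (0.13) or naive library 2 (0.101) and with limma (0.226). Smad3, at 128 to 139 CPM in control Treg, did not pass against naive cells (edgeR, adjusted p = 0.16) or against TGFb iTreg (edgeR, adjusted p = 0.413), and passed against the iTreg cells without TGFb library 1 (0.0337).

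Of the genes for ligands and their activation, 5 of 6 tested were higher in control Treg than in naive cells and none lower, while 4 of 7 were higher and 3 lower than in TGFb iTreg. Itgb8, the integrin subunit that helps release active TGFb, was at 22.7 CPM in control Treg, with 0 reads over both naive libraries and over both TGFb iTreg libraries. It was at least 137-fold higher than in naive cells and at least 161-fold higher than in TGFb iTreg, against a floor of 3 reads over the group. Lrrc32 was at 324 CPM in control Treg, with 3 reads over both naive libraries (ratio 1968, exact 95% interval 673 to 9542, counting error only), and was lower than in TGFb iTreg, which had 431 CPM (-0.43 ± 0.12). Of the 9 targets tested over naive cells 5 rose and 4 fell, and of the 10 tested over TGFb iTreg 5 rose and 5 fell. Itgae was 7.12 ± 0.19 higher in control Treg than in TGFb iTreg, and Id1 fell by 5.56 on the log2 scale. Ski (1.10 ± 0.09), Smurf2 (0.55 ± 0.11) and Pmepa1 (0.57 ± 0.16) were higher in control Treg than in TGFb iTreg. Summed B cell markers were at 43.2 to 105 CPM in control Treg, 3.07 to 3.53 CPM in TGFb iTreg and 2.19 to 3.02 CPM in naive cells, and summed myeloid and dendritic markers at 37.9 to 49.1 CPM in control Treg, 8.15 to 11.2 CPM in TGFb iTreg and 9.63 to 10.6 CPM in naive cells. NK cell markers summed to 3.85 to 7.11 CPM in control Treg, 0.186 to 0.192 CPM in TGFb iTreg and 15.5 to 18.04 CPM in naive cells. Their part in these results was not tested.

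The restimulated Foxp3-negative cells were compared with day 6 iTreg to show what differed in cells that no longer had Foxp3. All 10 genes changed: Tgfbr1, Tgfbr2, Tgfbr3, the 3 SMAD genes, Smad7 and Skil rose, and Tgfb1 and Bambi fell. Changes were common here, with 33.6% of 11252 genes higher and 35.2% lower (68.8% either way), against 8 of 10 higher and 2 lower. The median log2 fold change of the 10 was 0.68, against -0.01 over all genes. Restimulation, loss of Foxp3 and time in culture cannot be told apart in this design.

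Tgfbr2 was at 309, 321 and 341 CPM in restimulated Foxp3-negative cells, against 119, 115 and 112 CPM in day 6 iTreg, 2.81-fold higher (1.49 ± 0.06, edgeR, adjusted p = 7.28e-12). Tgfbr1 was at 74, 73.2 and 66.7 CPM in restimulated cells, against 41.3, 36.1 and 35.8 CPM in day 6 iTreg (0.92 ± 0.07, edgeR, adjusted p = 2.53e-08). The libraries of both signalling receptors were wholly apart. Tgfbr3 was at 14.5, 18.1 and 20.5 CPM in restimulated cells and 15.1, 11 and 10.5 CPM in day 6 iTreg, and here 1 restimulated library lay below the highest day 6 library (0.56 ± 0.15, edgeR, adjusted p = 0.00514). Tgfb1 was lower, at 207, 207 and 195 CPM in restimulated cells, against 328, 329 and 336 CPM in day 6 iTreg (-0.71 ± 0.05, edgeR, adjusted p = 1.24e-08).

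Smad3 was at 172, 169 and 169 CPM in restimulated cells, against 77.2, 69.4 and 64.8 CPM in day 6 iTreg, 2.42-fold higher (1.27 ± 0.06, edgeR, adjusted p = 1.97e-10). Smad4 was at 133, 139 and 138 CPM in restimulated cells, against 79.5, 82.6 and 74.1 CPM in day 6 iTreg (0.80 ± 0.06, edgeR, adjusted p = 1.24e-08). Smad2 was at 59.1, 57.2 and 56.1 CPM in restimulated cells, against 44.6, 45 and 40.9 CPM in day 6 iTreg (0.40 ± 0.06, edgeR, adjusted p = 4.29e-05). None of the 3 SMAD genes overlapped between groups, and the fold change was largest for Smad3.

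Smad7 was at 61.6, 57.4 and 65.2 CPM in restimulated cells, against 27.8, 31 and 33.6 CPM in day 6 iTreg (0.99 ± 0.08, edgeR, adjusted p = 2.48e-08). Skil was at 61.9, 57.9 and 66.1 CPM in restimulated cells, against 47.8, 50.3 and 56 CPM in day 6 iTreg (0.27 ± 0.07, edgeR, adjusted p = 0.00385). Bambi had 33, 31 and 45 reads in restimulated cells and 122, 192 and 175 reads in day 6 iTreg, 4.50-fold lower in CPM (-2.17 ± 0.16, edgeR, adjusted p = 1.79e-08). So the inhibitors divided, with Smad7 and Skil higher and Bambi lower in every restimulated library. All 10 calls were kept under every alternative and leave-one-out fit run.

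**Figure D5:**
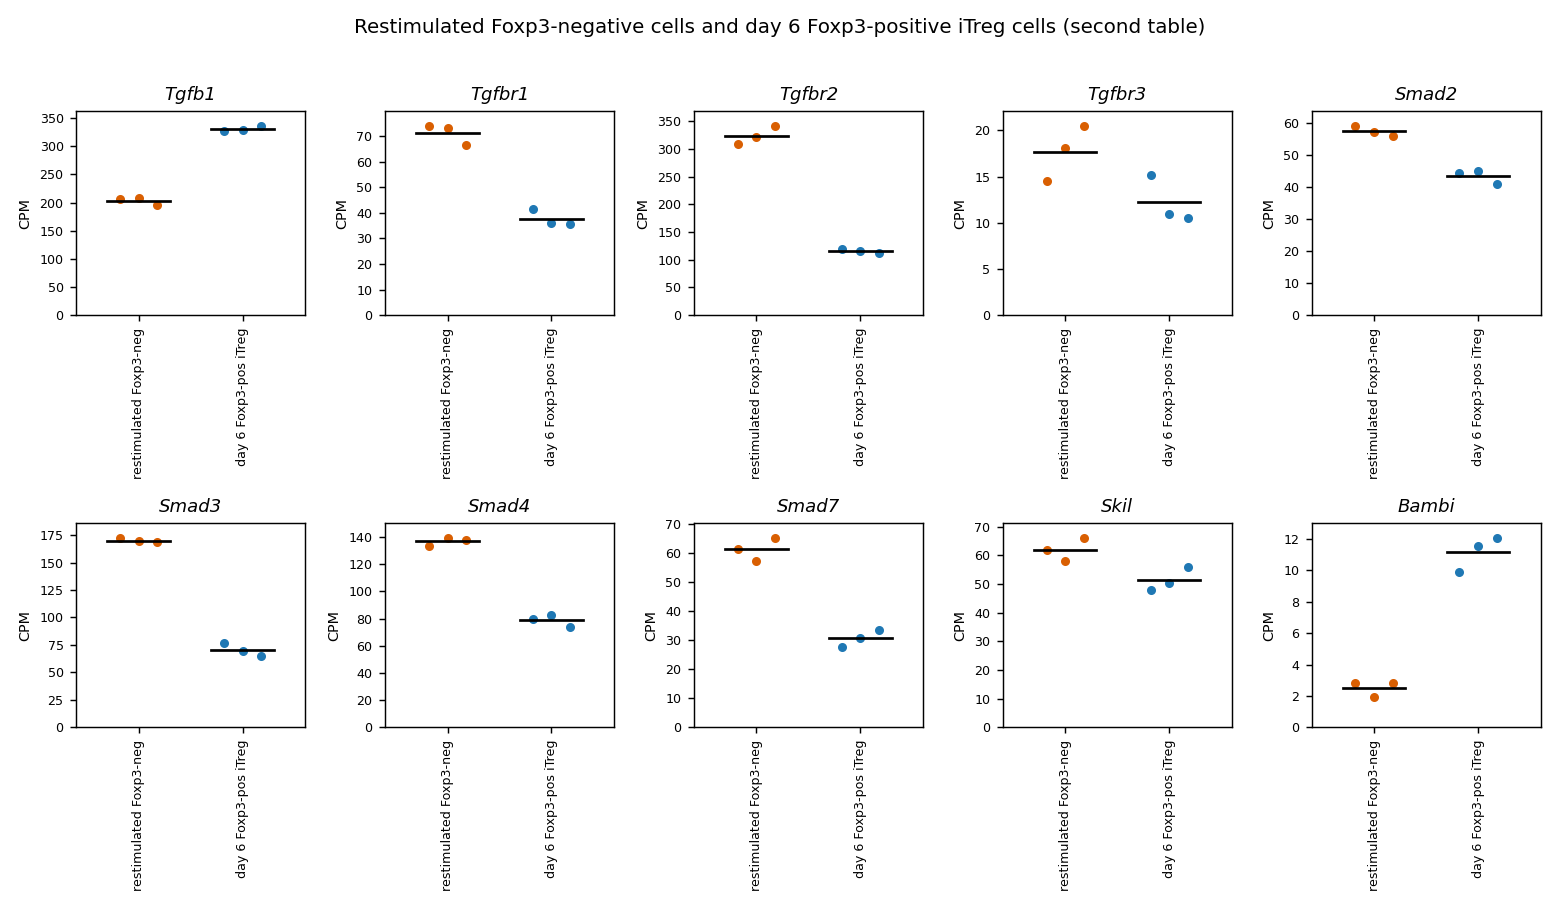
CPM (vertical axes, from 0) of the 10 genes in the 3 libraries of restimulated Foxp3-negative cells and the 3 of day 6 Foxp3-positive iTreg cells; points are libraries and bars are means. Tgfb1 and Bambi are lower in restimulated cells, the other 8 genes are higher, and the groups overlap for Tgfbr3 alone. Differences were common in this comparison, with 68.8% of all genes tested called.

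All 16 regulators tested changed as well, 11 higher and 5 lower, with Pmepa1 (0.83 ± 0.09), Ski (0.74 ± 0.07) and Smurf2 (0.49 ± 0.07) higher. Of 9 targets 3 rose and 6 fell. Itgae was at 9.54 CPM in restimulated cells, against 0.611 CPM in day 6 iTreg, whereas Id1 was at 1.33 CPM, against 15.4 CPM, and Junb at 52.7 CPM, against 160 CPM. Lrrc32 fell by 1.79 and Acvrl1 by 2.82 on the log2 scale. Summed NK cell markers, 3 genes, were at 10.2 to 11.7 CPM in restimulated cells and 0.181 to 0.345 CPM in day 6 iTreg, with the defining marker Ncr1 at 0 in both. Summed myeloid and dendritic markers were at 0.307 to 0.517 CPM in restimulated cells and 5.13 to 6.59 CPM in day 6 iTreg, with Csf1r, Itgax and Clec9a at 0 in both.

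Across the 8 groups of the first table, the order of levels differed between the members. Tgfbr1 was lowest in Th0 and naive cells, which overlapped, then higher in TGFb, TGFb+VitC, TGFb+RA and TGFb+RA+VitC iTreg, each apart from the next, and highest in control and Tet2/3-deficient Treg, which overlapped. Smad7 was lowest in Th0 and then in TGFb+RA+VitC iTreg, each apart from the next. The second gap was very small, with TGFb+RA+VitC library 1 at 32.69 CPM and Tet2/3-deficient library S8 at 32.75 CPM. Next came Tet2/3-deficient Treg and the other 3 iTreg cultures, which overlapped as neighbours, and then control Treg and naive cells. Skil was lowest in Th0, then TGFb and TGFb+RA iTreg, each apart from the next, while TGFb+RA+VitC iTreg, Tet2/3-deficient Treg and TGFb+VitC iTreg overlapped. Naive cells had a higher mean but overlapped Tet2/3-deficient Treg, with naive library 1 at 196.2 CPM and Tet2/3-deficient library S5 at 196.6 CPM. Control Treg lay above all of these.

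Likeness over these 8 group means of log2 CPM is given as a description, since the points are few and the 8 groups were scaled together. Among the 10 genes, the highest Pearson r was 0.93 between Smad4 and Smad7, then 0.90 between Tgfbr2 and Smad7, and the lowest was -0.91 between Tgfb1 and Tgfbr2 (8 groups). Naive cells, highest for Tgfbr2, Smad4 and Smad7, weigh heavily in these values. Candidates were the 3746 genes averaging 10 CPM or more whose group means spanned at least 1 log2 unit. Those most like Skil were Cpeb4 (r = 0.995), Wdr11 (0.983), Ago2 (0.979) and Bcl3 (0.976). Among those most like Smad7 were Foxk1 (r = 0.984), Junb (0.983) and Map3k14 (0.975). Those most like Tgfbr3 were Samd9l (r = 0.971), Klhl18 (0.951), Ccdc22 (0.949) and Dzip1 (0.943).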

How the data were processed

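Polyadenylated RNA was prepared with RNeasy Plus and TruSeq stranded kits, per the labels' protocols. Per the submitters' processing notes, the authors used the mm9 build, TopHat2 2.1.1 and, among other tools, Trim Galore 0.4.2 and edgeR 3.26.6; the counting tool, annotation and strand setting are not given in the sources used here. The deposited counts are whole reads over exons, and the deposited FPKM equal the count over the library total and exon length. In these files 92 of 21761 genes have no symbol. Ex vivo Treg columns show a group and carry numbers that match no single sample.

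Counts were tested with edgeR 4.0.16 in R 4.3.3 (TMM factors, filterByExpr, robust quasi-likelihood, 2-sided, Benjamini-Hochberg over all genes of a comparison, threshold 0.05), after a check on simulated data. The 12 naive and cultured libraries shared a fit, and the tables were never pooled. An SE is the fold change over the square root of F. Alternatives were RLE factors, no filter, DESeq2 1.42.0, limma 3.58.1 on log2(FPKM + 1), a replicate block, all 20 libraries, and leaving out each library. No replicates were copies by a chi-square test of their counts. Exon overlaps were looked up in GENCODE vM21; Tgfbr3 alone overlapped another gene, one absent from the count table.

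The 10 members and 5 lists of 52 other pathway genes were chosen with earlier results of these data known. Named from the lists were at most 5 called genes per comparison with the largest change and a mean of at least 5 CPM, plus Lrrc32, Ski, Smurf2 and Pmepa1; not all are printed, and 1 gene under the rule for likeness is not reported here.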

Additional observations from a re-analysis of the deposited data

How the results depend on the processing

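The 120 values of the 10 genes in 12 comparisons were recomputed under the alternatives, giving 1300 values. No called value changed sign, 1246 stayed on the same side of the threshold, 37 missed it where the main value passed and 17 passed it where the main value did not. Of those that stayed, 54 changed sign with neither value called, the largest at 0.47 on the log2 scale. All calls lost or gained in leave-one-out fits are named beside their results.

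Replicate numbers are shared by the cultured groups and by the restimulation groups. Same-numbered libraries correlated in their deviations from group means at r = 0.07, 0.16 and 0.25 in the restimulation table. In the cultured groups r was 0.0654 between TGFb iTreg and Th0 and -0.00116 between Th0 and naive cells. Between the iTreg cultures compared it was higher, at 0.337 to 0.584, so same-numbered iTreg libraries shared part of their deviations. The labels do not say what the numbers share, so pairing is not established, and the main fit did not use the numbers. With a replicate block, TGFb+RA against TGFb iTreg had 5 of the 10 called instead of 3, adding Tgfb1 (edgeR, adjusted p = 0.0446) and Smad3 (0.0374). Calls over all genes rose as well in that comparison, to 2584 from 1860 of 11287. The block also added Tgfb1 with TGFb+RA+VitC (0.0166), Tgfbr1 over TGFb+RA (0.0348) and Tgfbr2 over TGFb+VitC (0.0119), and over all genes it called 1360 instead of 851 for TGFb+RA+VitC against TGFb+RA. No paired analysis was possible for the ex vivo Treg comparisons because their columns carry no shared numbers.

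Leaving out a library gave 1 to 2 members called for TGFb+VitC against TGFb iTreg, 1 to 3 for TGFb+RA, 3 to 5 for TGFb+RA+VitC, 1 to 3 for TGFb+RA+VitC against TGFb+RA and 1 to 2 against TGFb+VitC. Over all genes such fits called 771 to 1001 instead of 1900, 795 to 1898 instead of 1860, 2811 to 3301 instead of 4232, 424 to 899 instead of 851 and 819 to 1367 instead of 1706 in those comparisons, and 1480 to 1945 instead of 2943 for TGFb iTreg against Th0. The interaction called 2 genes, against 25 without a filter, 16 with DESeq2, 23 with limma and 26 with the block. Without a filter the median of all genes moved to 0.14 (control Treg over naive) and 0.15 (over TGFb iTreg), and with limma to 0.12 (over naive). Cultured groups have 2 libraries each, and Bambi has few reads, which limits their precision.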
